A study of Mus musculus with 24 samples.

Results

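The 10 genes described here encode the proteins that release calcium from the sarcoplasmic reticulum of muscle fibres, bind it and pump it back. They were picked from a list of gene symbols, with earlier results of these data known, and all 10 were found among the 55401 genes of the count table. The release machinery is represented by Ryr1 and Cacna1s, the store and its anchors by Casq1, Casq2 and Trdn, the pumps by Atp2a1 and Atp2a2, the pump inhibitors by Sln and Pln, and the cytosolic buffer by Pvalb. Poly-A RNA of the gastrocnemius, a mixed calf muscle, was sequenced in 12 male C57BL6 mice that formed 4 groups of 3 by age (young or adult) and treatment (sham or burn). A full-thickness scald of 25% of the body surface, or the sham procedure, was given at an age of 5 weeks (young) or 11 weeks (adult), and muscle was taken 24 h later. Both treatments included anaesthesia and an analgesic, while only burned mice were resuscitated with lactated Ringer's solution, so that the burn and the fluid cannot be told apart. A single time and 3 mice per group, all male, limit the groups as a model. The comparisons ask how muscle of young and adult mice differs at rest and after a burn, and whether the burn acts differently at both ages.

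In skeletal muscle an action potential moves the voltage sensor in the transverse tubule, which opens the ryanodine receptor of the facing reticulum so that stored calcium floods the cytosol and starts contraction. Calsequestrin holds the calcium inside the reticulum and is tied to the receptor by triadin, and SERCA pumps return the calcium so that the fibre relaxes. Fast fibres use the SERCA1 pump, calsequestrin 1 and parvalbumin, while slow and cardiac muscle fibres use the SERCA2 pump and hold calsequestrin 2 as well.

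Total counts ranged from 4392605 to 5688512 per library, of which the 10 calcium genes took between 2.001% and 3.61%. Young burn replicate 2 stood apart from the others, with a median absolute difference of 0.366 log2 units from the other mice of its group, against 0.159 to 0.255 in the other 11 libraries, and it had the lowest share for the calcium genes. It also held the lowest level of 6 of the 10 genes among all 12 mice, namely Ryr1, Casq1, Trdn, Atp2a1, Atp2a2 and Pvalb. The share of all genes with their lowest level in this mouse was not counted, so this cannot be called particular to these genes. Each model was therefore fitted over 12 libraries and over the 11 libraries without this mouse. Values are over 12 libraries where 11 is not named, and for the 10 genes a value printed over 12 libraries alone had the same call over 11. Markers of muscle fibres were abundant in every mouse, with a summed level of 59406 to 107624 CPM (counts scaled to a common library size) over 5 genes, and the fast fibre list of 7 genes ranged from 47453 to 108804 CPM. The slow fibre list of 6 genes ranged from 379 to 1508 CPM. Markers of other cell types were much lower, at 65.7 to 117 CPM for smooth muscle, 12.5 to 279 CPM for adipocytes, 153 to 447 CPM for red blood cells and 1.81 to 10.2 CPM for cardiac muscle. Tendon markers had a sum of 55.5 to 92.2 CPM in young sham and 11.8 to 41.4 CPM in the other groups. For burn over both ages 2 of 3 were called lower over 12 libraries and 3 over 11. Macrophage markers had 159 to 248.9 CPM in young burn and 83.9 to 110.1 CPM in young sham, and 105 to 149 CPM in adult burn and 87.1 to 98.1 CPM in adult sham, with 1 of 4 markers called higher for burn over both ages over 12 libraries and 3 over 11. In adult burn against adult sham 0 of 4 were called in either fit. Between young burn and young sham 0 of 4 were called over 12 libraries and 1 over 11. Neutrophil markers had 5.96 to 27.02 CPM after burn and 1.42 to 4.14 CPM after sham. In bulk muscle, fewer cells of a type and less RNA per cell cannot be told apart.

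Levels are normalized CPM, and between genes they were compared only per kilobase of annotated exon. On that scale Pvalb was the most abundant of the 10 genes in every group, followed by Atp2a1, Casq1, Trdn and Ryr1 in this order. In young sham, Pvalb had 22349 ± 3414 CPM per kb, Atp2a1 1863 ± 356 and Casq1 1559 ± 108 (SD, n = 3). Within each young sham mouse Atp2a1 lay above Casq1, at 2262 against 1468, 1580 against 1530 and 1747 against 1679 CPM per kb. In adult sham Atp2a1 had 2501 ± 188 CPM per kb and Casq1 844 ± 173 (SD, n = 3), a difference larger than the spread of either gene. Atp2a2, Cacna1s and Casq2 followed with group means of 10.4 to 41.3 CPM per kb, and their order changed between groups. Sln came next and Pln last in all 4 groups, with group means of 4.03 to 9.55 and 0.364 to 0.898 CPM per kb. The exon length of Pln includes bases that it shares with other genes. The 2 SERCA pumps thus differed by a wide margin in this muscle, with Atp2a2 at 0.820% to 2.74% of the pair per mouse.

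**Figure D1:**
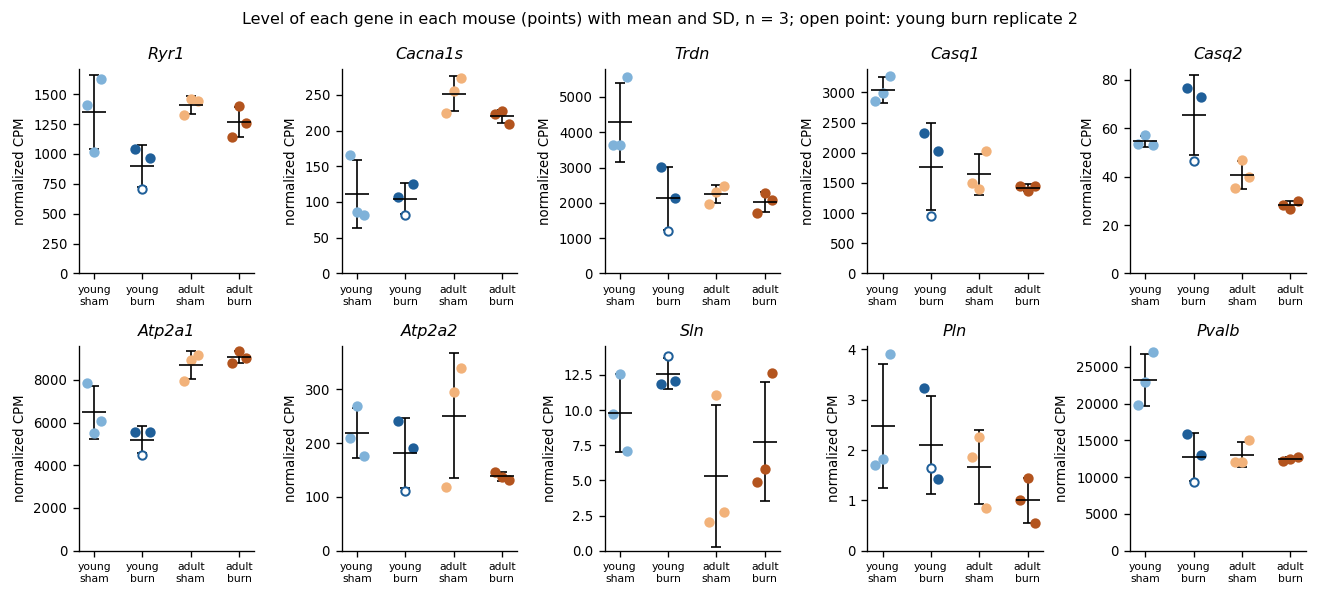
Level of each of the 10 calcium genes in each mouse (points; y axis, normalized CPM on a linear scale from 0), with mean and SD of each group (n = 3); the open point is young burn replicate 2. Cacna1s and Atp2a1 lay lower in both young groups than in both adult groups, while young sham stood above the other groups in Casq1, Trdn and Pvalb.

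Age was the factor with most calls among these genes. Between young sham and adult sham, edgeR's quasi-likelihood test with Benjamini-Hochberg adjustment called 2 of the 10 genes over 12 libraries (Cacna1s lower and Pvalb higher in young), against 3.76% of all 12408 genes tested. Over 11 libraries it called 6, against 11.8% of 12651 genes. Of these, Casq1, Casq2, Trdn and Pvalb were higher in young mice (4 of 10, against 5.27% of all genes) and Cacna1s and Atp2a1 lower (2 of 10, against 6.49%). Between the burned groups 3 genes were called over 12 libraries, against 10.8% of all genes. Over 11 libraries 4 were called, against 20.7%, namely Casq1 and Casq2 higher (11.2% of all genes) and Cacna1s and Atp2a1 lower in young burn (9.54% of all genes). With burn in the model, the age effect over both treatments was called for 4 genes over 12 libraries (19.9% of all genes) and for 6 over 11 libraries (29.3%), the same 6 as between the sham groups. In that model 4 genes were higher in young mice, against 14.8% of all genes, and 2 were lower, against 14.5%. The median log2 fold change of the 10 genes between the sham groups was 0.49 over 12 libraries, against 0.01 over all genes tested. Fibre markers were compared as well. The 5 muscle fibre genes had a sum of 82302 to 107624 CPM in young sham and 66799 to 78415 CPM in adult sham. Of these 1 was called higher in young sham in both fits. The fast fibre list had 69269 to 108804 and 58311 to 60495 CPM. Of its 6 tested genes 1 was called higher in both fits and 1 lower over 11. Between the burned groups both sums overlapped. Markers of other cell types moved with age too. Schwann cell markers had a sum of 82.4 to 155 CPM in young sham and 54.4 to 166 CPM in young burn, against 59.0 to 70.0 CPM in adult sham and 49.2 to 67.4 CPM in adult burn, and 2 of 3 were called higher in young mice over 12 libraries and 3 over 11. Endothelial markers had 253 to 346 CPM in young sham, 294.5 to 382 CPM in young burn, 245 to 269 CPM in adult sham and 229 to 253 CPM in adult burn, with 1 of 4 called higher in young mice over 12 libraries and 2 over 11. For tendon 2 of 3 markers were called higher in young mice in both fits. The part of these cells and of fibre content in the age differences was not tested. RNA quality may differ with age as well. The quality report of the study gives no RNA integrity number for any of the 12 RNA samples. In that report the ratio of large to small ribosomal RNA was at least as high in every adult sham mouse as in every young sham mouse. Between the burned groups these ratios overlapped. The part of RNA quality in the age differences was not tested.

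Burn gave fewer calls. None of the 10 genes was called by edgeR between adult burn and adult sham over 12 libraries, where 2 had an unadjusted p under 0.05, DESeq2 also called 0, and 0.00806% of all genes were called by edgeR and 0.0245% by DESeq2. Over 11 libraries Casq2 alone was called, lower in adult burn, against 0.909% of all genes called in either direction and 0.348% called lower. Between young burn and young sham edgeR called 0 of 10 over 12 libraries (0.0645% of all genes) and 0 over 11 libraries (0.664%), with an unadjusted p under 0.05 for 4 and 5 genes. DESeq2, the tool the study used, called Ryr1, Casq1, Trdn and Pvalb lower in young burn over 12 libraries, where it called 1.9% of all genes lower. Over 11 libraries it called Casq1, Trdn and Pvalb lower, against 0.898% of all genes. The burn effect over both ages was called by edgeR for 0 of the 10 genes over 12 libraries (0.717% of all genes) and over 11 (2.15%), with an unadjusted p under 0.05 for 5 genes in either fit, and DESeq2 called 0 and 1, the latter Casq1, against 2.83% and 3.29% of all genes. The burn by age interaction, which is the burn effect in young mice minus that in adult mice, was called for no gene over 12 libraries (0.0% of all genes, 3 of the 10 genes with an unadjusted p under 0.05, 0 by DESeq2 against 0.00351% of all genes). Over 11 libraries it was called for Casq2, against 0.0949% of all genes in either direction and 0.079% in the direction of a higher burn effect in young mice. The median log2 fold change of the 10 genes in young burn was -0.30 over 12 libraries and -0.12 over 11, against 0.01 over all genes in both.

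**Figure D2:**
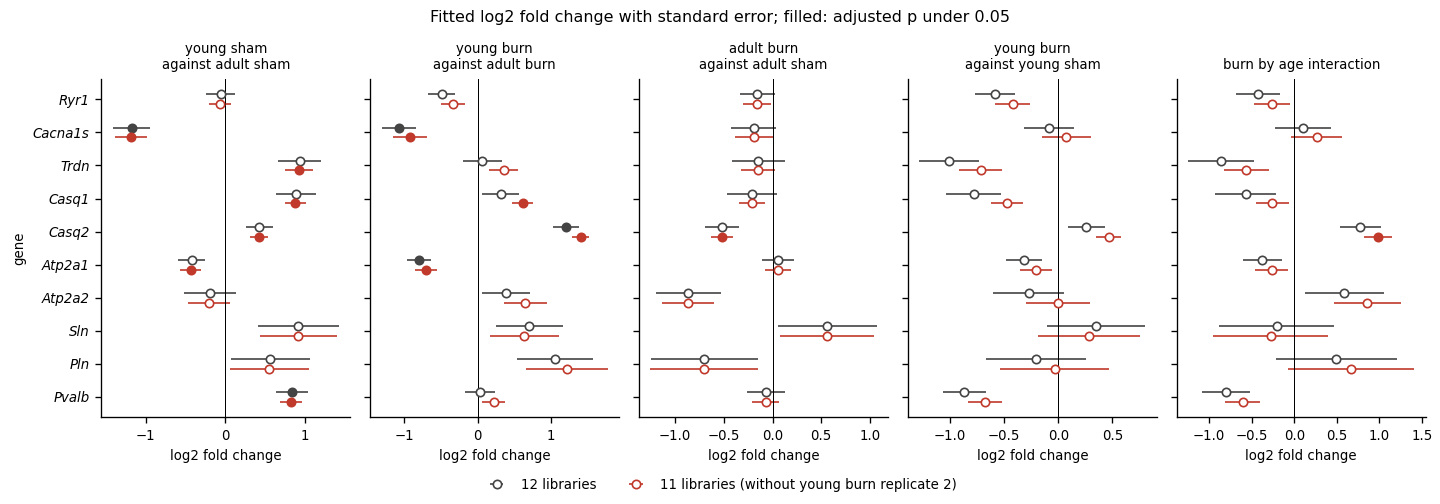
Fitted log2 fold change (x axis) with standard error (SE) of each of the 10 genes (y axis) in 5 comparisons, over 12 libraries (dark) and over the 11 libraries without young burn replicate 2 (red); filled points had an adjusted p under 0.05 in edgeR's quasi-likelihood test. Cacna1s was lower and Casq2 higher in both comparisons of young with adult mice, and Casq2 is the filled point of the interaction, at 0.99 over 11 libraries.

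Ryr1 (ENSMUSG00000030592.18, chromosome 7 from 29003344 to 29125179 on GRCm38) encodes the ryanodine receptor of skeletal muscle, the channel through which the store empties. Its level was 1412, 1012 and 1629 CPM in the 3 young sham mice and 1039, 702 and 962 CPM in young burn. Adult sham mice had 1325, 1459.9 and 1442 CPM and adult burn mice 1141, 1397 and 1259 CPM. Sham mice of both ages overlapped, and the lowest young sham mouse lay inside the range of young burn. The log2 fold change in young burn against young sham was -0.58 over 12 libraries (SE 0.18, adjusted p = 0.123) and -0.42 over 11 (SE 0.16, adjusted p = 0.217), short of the threshold. In adult burn it was -0.15 (SE 0.18, adjusted p = 0.882).

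Cacna1s (ENSMUSG00000026407.17, chromosome 1 from 136052750 to 136119822) encodes the pore and voltage-sensing subunit of the L-type calcium channel in the transverse tubule. Young sham mice had 166, 85.5 and 81.7 CPM and young burn mice 107, 82.2 and 125 CPM, against 225, 256 and 273 CPM in adult sham and 224, 227 and 209.8 CPM in adult burn. Each of the 6 young mice lay below each of the 6 adult mice, and young sham and young burn overlapped. The group means were 111 ± 47.8 CPM in young sham and 251 ± 24.4 CPM in adult sham (SD, n = 3). The log2 difference of young sham from adult sham was -1.18 (SE 0.24, adjusted p = 0.0160) over 12 libraries and -1.19 (SE 0.20, adjusted p = 0.00232) over 11. Over 12 libraries the call was lost when adult sham replicate 2 (adjusted p = 0.0688) or 3 (0.0525) or young sham replicate 2 (0.0795) or 3 (0.0968) was left out. After burn the same difference was -1.07 (SE 0.23, adjusted p = 0.0135) over 12 libraries and -0.92 (SE 0.23, adjusted p = 0.0121) over 11, where leaving out young burn replicate 1 or 3 gave an adjusted p of 0.117 and 0.0523. With both treatments in one model the age effect was -1.13 (adjusted p = 0.000413), or 2.18-fold lower in young mice. The burn effect was -0.19 in adult mice (adjusted p = 0.884) and -0.09 in young mice (adjusted p = 0.865), and the latter changed sign to 0.07 over 11 libraries. Of its exon bases, 20.0% are shared with the antisense gene Gm37759, and which strand the counts cover is not known from the sources used here.

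The 2 calsequestrins are isoforms whose levels followed different patterns over the groups, and the 250 bases before their RefSeq transcription starts are shown for this reason. Casq1 (ENSMUSG00000007122.11, chromosome 1 from 172209894 to 172219868, minus strand) encodes the main calcium-binding protein of the fast fibre store. Casq2 (ENSMUSG00000027861.13, chromosome 3 from 102086415 to 102146514, plus strand) encodes the isoform of heart and slow muscle. The windows are chr1:172219896-172220145 on the minus strand and chr3:102086165-102086414 on the plus strand of GRCm38.p6, written 5′ to 3′. Capitals mark the letters CAGCTG, a form of the E-box that myogenic factors bind, in Casq1, and a match to the MEF2 motif in Casq2.
Casq1: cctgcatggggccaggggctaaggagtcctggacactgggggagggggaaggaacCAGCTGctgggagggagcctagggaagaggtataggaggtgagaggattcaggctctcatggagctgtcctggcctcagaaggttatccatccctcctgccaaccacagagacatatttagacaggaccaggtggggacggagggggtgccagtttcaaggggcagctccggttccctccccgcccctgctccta
Casq2: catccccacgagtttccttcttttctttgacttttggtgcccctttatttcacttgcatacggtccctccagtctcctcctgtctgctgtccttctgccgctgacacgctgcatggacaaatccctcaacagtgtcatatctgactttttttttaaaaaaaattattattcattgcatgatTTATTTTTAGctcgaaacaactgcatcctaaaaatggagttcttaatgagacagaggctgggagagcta

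Both strands were searched. The Casq1 window held 1 CAGCTG and no MEF2 match, and the Casq2 window held 1 MEF2 match and no CAGCTG. Among 32851 RefSeq windows of the same length, 13.0% held CAGCTG, 2.92% the MEF2 motif and 66.2% the wider form CANNTG, which includes CAGCTG. A RefSeq window was found for 7 of the 10 genes, with 2 for Pvalb. Cacna1s and Atp2a1 also held 1 CAGCTG each, 1 of the Pvalb windows held 1 MEF2 match, and those of Ryr1 and Pln held neither. These matches describe letters only, and binding was not measured.

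Casq1 had 2865, 2985 and 3276 CPM in young sham and 1502, 1403 and 2031 CPM in adult sham, so that the groups did not overlap. After burn, young mice had 2331, 954 and 2023 CPM and adult mice 1450.4, 1361 and 1456 CPM. All 3 burned young mice lay below all young sham mice, and young burn replicate 2, with 954 CPM, lay below all adult mice as well. The other burned young mice lay above all adult burn mice. The log2 fold change between young sham and adult sham was 0.89 over 12 libraries (SE 0.25, adjusted p = 0.0683) and 0.88 over 11 (SE 0.13, adjusted p = 0.00107), a 1.84-fold difference. Leaving out young burn replicate 1 in place of replicate 2 gave an adjusted p of 0.0476. The call over 11 libraries was kept whichever further library was left out, with a highest adjusted p of 0.00831. Between the burned groups it was 0.31 (adjusted p = 0.444) over 12 libraries and 0.62 (SE 0.14, adjusted p = 0.00862) over 11, with 0.51 (adjusted p = 0.102) if young burn replicate 1 was left out too. The log2 fold change in young burn against young sham was -0.78 (SE 0.25, adjusted p = 0.128) over 12 libraries and -0.47 (SE 0.15, adjusted p = 0.136) over 11 by edgeR, and DESeq2 gave an adjusted p of 0.0496 and 0.0490. Without young burn replicate 1 alone it was -1.03 by edgeR (adjusted p = 0.0401). The age effect over both treatments was 0.60 over 12 libraries (SE 0.19, adjusted p = 0.0381) and was lost in 10 of the 12 fits that left out 1 library (adjusted p 0.0515 to 0.0944), being kept without adult sham replicate 3 or young burn replicate 2. Over 11 libraries it was 0.76 (SE 0.10, adjusted p = 0.000106). Adult burn differed from adult sham by -0.21 (SE 0.25, adjusted p = 0.884).

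Casq2 was lower than Casq1 in every mouse but followed another pattern. Young sham mice had 53.3, 57.3 and 52.9 CPM and young burn mice 76.5, 46.4 and 73.0 CPM. Adult sham mice had 35.15, 46.9 and 39.9 CPM and adult burn mice 28.3, 26.75 and 29.9 CPM. Burned adult mice lay below every other mouse, and burned young mice lay above every other mouse apart from young burn replicate 2. The means were 54.5 ± 2.43 CPM in young sham, 40.6 ± 5.91 CPM in adult sham and 28.3 ± 1.57 CPM in adult burn (SD, n = 3), and 65.3 ± 16.5 CPM in young burn, or 74.7 ± 2.51 CPM without replicate 2 (SD, n = 2).

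Casq2 was called higher in young than in adult mice after burn in both fits. Between the burned groups its log2 fold change was 1.204 over 12 libraries (SE 0.17, adjusted p = 0.00174) and 1.41 over 11 (SE 0.12, adjusted p = 8.48e-06), which is 2.30-fold and 2.65-fold higher in young burn. Between the sham groups it was 0.43 (SE 0.17, adjusted p = 0.183) and 0.42 (SE 0.11, adjusted p = 0.0241). The call over 11 libraries was lost without adult sham replicate 1 (adjusted p = 0.109) or 3 (0.0643) or young sham replicate 2 (0.0778) or 3 (0.0560). In adult burn against adult sham it was -0.52 over 12 libraries (SE 0.18, adjusted p = 0.614) and -0.52 over 11 (SE 0.11, adjusted p = 0.0454). That fall was called in 2 of the 11 fits that left out 1 more library, without adult sham replicate 1 or young sham replicate 1, with adjusted p up to 0.207 without adult burn replicate 2. In young burn against young sham the value was 0.26 (SE 0.17, adjusted p = 0.406) and 0.47 (SE 0.12, adjusted p = 0.0786), which did not pass. The interaction was 0.78 (SE 0.24, adjusted p = 0.683) over 12 libraries and 0.99 (SE 0.16, adjusted p = 0.0341) over 11. Over the 11 fits with 1 more library left out the interaction ranged from 0.86 to 1.08, and it passed in 3 of them, without adult burn replicate 1, adult sham replicate 1 or adult sham replicate 3, with adjusted p between 0.0507 and 0.157 in the other 8.

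Trdn (ENSMUSG00000019787.9, chromosome 10 from 33080554 to 33476709) encodes triadin, the membrane protein that links calsequestrin to the release channel. It had 3631, 3629.9 and 5580.0 CPM in young sham and 3016, 1212 and 2152 CPM in young burn, and 1966, 2307 and 2469 CPM in adult sham and 1717, 2280.1 and 2090.3 CPM in adult burn. Young sham lay above all other mice, as for Casq1. The log2 fold change between the sham groups was 0.93 over 12 libraries (SE 0.27, adjusted p = 0.0731) and 0.92 over 11 (SE 0.18, adjusted p = 0.00461), with a highest adjusted p of 0.0270 when 1 more library was left out. Without young burn replicate 1 in place of replicate 2 the adjusted p was 0.0403. In young burn against young sham it was -1.01 (SE 0.27, adjusted p = 0.0940) and -0.72 (SE 0.20, adjusted p = 0.104). DESeq2 gave adjusted p of 0.0132 and 0.0184 for the same comparison, and without young burn replicate 1 alone edgeR gave -1.35 (adjusted p = 0.0237). In adult burn it was -0.15 (SE 0.27, adjusted p = 0.934). The interaction of -0.86 (SE 0.38, adjusted p = 0.684) did not pass.

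Atp2a1 (ENSMUSG00000030730.12, chromosome 7 from 126445858 to 126463108) encodes SERCA1, the pump of fast fibres. Its level was 7864, 5492 and 6074 CPM in young sham, 5572, 4461 and 5552 CPM in young burn, 7955, 8936 and 9195 CPM in adult sham and 8780.3, 9346 and 9049.9 CPM in adult burn. As for Cacna1s, all 6 young mice lay below all 6 adult mice. The log2 fold change between the burned groups was -0.80 over 12 libraries (SE 0.16, adjusted p = 0.0105), or 1.74-fold lower in young burn, and -0.70 over 11 (SE 0.15, adjusted p = 0.00520). Between the sham groups it was -0.425 (SE 0.16, adjusted p = 0.161) and -0.43 (SE 0.13, adjusted p = 0.0429). The latter call was lost in 10 of the 11 fits with 1 more library left out, with adjusted p from 0.0554 to 0.137, and was kept without young sham replicate 1. With both treatments in one model the age effect was -0.61 (SE 0.13, adjusted p = 0.00500) and passed in each fit with 1 library left out. The burn effect was 0.06 in adult mice (SE 0.16, adjusted p = 0.957) and -0.32 in young mice (SE 0.16, adjusted p = 0.288), neither of which passed. Of its exon bases, 21.9% are shared with Rabep2 on the opposite strand.

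Atp2a2 (ENSMUSG00000029467.15, chromosome 5 from 122453513 to 122502225) encodes SERCA2, the pump of slow and cardiac muscle. Young sham mice had 210.2, 269.8 and 177 CPM and young burn mice 241, 111 and 191 CPM, and adult burn mice 146, 138 and 131 CPM. In adult sham the 3 mice had 119, 294 and 340.0 CPM, the widest spread of any group for this gene. The difference between adult burn and adult sham was -0.86 (SE 0.33, adjusted p = 0.676) over 12 libraries and -0.86 (SE 0.27, adjusted p = 0.150) over 11. It was -1.2 (adjusted p = 0.00477) if adult sham replicate 1, the mouse with 119 CPM, was left out as well, and young burn then exceeded adult burn by 0.65 (adjusted p = 0.0133). No comparison called Atp2a2 over 12 or 11 libraries, and the burn effect in young mice was -0.27 over 12 libraries and -0.01 over 11.

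The pump inhibitors were the least abundant members. Sln (ENSMUSG00000042045.6, chromosome 9 from 53850164 to 53854560), which encodes the small peptide sarcolipin, had 9.74, 12.6 and 7.07 CPM in young sham and 11.8, 13.9 and 12.1 CPM in young burn. Adult sham mice had 2.07, 11.1 and 2.76 CPM and adult burn mice 4.86, 5.78 and 12.6 CPM. In either adult group 1 mouse lay among the young mice, and the others lay below all of them. The age effect over both treatments was 0.80 over 12 libraries (SE 0.33, adjusted p = 0.0975), and it was 1.13 (adjusted p = 0.0209) without adult sham replicate 2 and 1.07 (adjusted p = 0.0423) without adult burn replicate 3. Over 11 libraries it was 0.77 (adjusted p = 0.0900), and these mice gave adjusted p of 0.0152 and 0.0284 when left out as well. Without adult sham replicate 2 the difference between the sham groups also passed over 11 libraries, at 2.03 (adjusted p = 0.0197). Pln (ENSMUSG00000038583.13, chromosome 10 from 53337667 to 53345987) encodes phospholamban, the inhibitor best known from heart, and was counted with 3 to 18 reads per mouse. Its levels were 1.71, 1.82 and 3.90 CPM in young sham, 3.23, 1.64 and 1.43 CPM in young burn, 1.86, 2.27 and 0.848 CPM in adult sham and 1.01, 1.45 and 0.557 CPM in adult burn. The groups overlapped in each of the 4 comparisons, by a narrow margin between young burn and adult burn. At this depth no difference in Pln was detectable, and 64.7% of its exon bases are shared with Gm47644 and Cep85l on the opposite strand. Among the markers, Tnnc2 and Tagln also share most exon bases with other genes (74.0% and 67.9%). They had 0.0 to 1.36 and 0.0 to 1.03 CPM. Whether reads on shared bases were counted was not tested, so the level of Pln per kilobase and its ratio to Sln are uncertain.

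Pvalb (ENSMUSG00000005716.16, chromosome 15 from 78191114 to 78206400) encodes parvalbumin, the soluble buffer that takes up calcium in fast fibres before the pump removes it. It had 19872, 22965 and 26960 CPM in young sham, 15852, 9349 and 13053 CPM in young burn, 12017, 12099.9 and 15027 CPM in adult sham and 12165, 12510.3 and 12706 CPM in adult burn. All young sham mice lay above all other mice. The log2 fold change between the sham groups was 0.83 over 12 libraries (SE 0.20, adjusted p = 0.0373), a 1.78-fold difference, and 0.82 over 11 (SE 0.14, adjusted p = 0.00214). Over 12 libraries the call was lost in 8 of the 12 fits with 1 library left out, with adjusted p from 0.0532 to 0.161, and kept without adult sham replicate 3, young sham replicate 1 or young burn replicate 1 or 2. Over 11 libraries it was kept in all 11, with a highest adjusted p of 0.0171. In young burn against young sham the value was -0.87 (SE 0.20, adjusted p = 0.0686) over 12 libraries and -0.67 (SE 0.16, adjusted p = 0.0634) over 11 by edgeR, and DESeq2 gave adjusted p of 0.000955 and 0.000842. The edgeR value was -1.06 (adjusted p = 0.0235) without young burn replicate 1 alone, and over 11 libraries it was -0.77 (adjusted p = 0.0323) without young sham replicate 1. In adult burn the difference was -0.07 (SE 0.20, adjusted p = 0.960). The interaction of -0.80 (SE 0.28, adjusted p = 0.683) did not pass.

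For the calsequestrins, the SERCA pumps and the pump inhibitors the ratio of both genes was formed within each mouse. This ratio does not depend on how libraries are scaled. Casq2 made up 1.32%, 1.36% and 1.15% of both calsequestrins per kilobase in young sham and 2.30%, 3.38% and 2.52% in young burn. In adult mice it made up 1.66%, 2.35% and 1.40% after sham and 1.39%, 1.40% and 1.46% after burn. Thus young burn lay above young sham without overlap, while adult burn lay at the lower end of adult sham. The mean log2 ratio of Casq2 to Casq1 was higher by 1.10 in young burn than in young sham and lower in adult burn than in adult sham, at -0.32. Averaged over both ages the burn effect was 0.39 (exact stratified permutation test, two-sided, 400 relabellings, p = 0.18, adjusted over 6 tests p = 0.3). The difference between the 2 burn effects on this ratio was not tested, and an exact permutation of 3 mice against 3 at a single age cannot go below p = 0.10.

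The share of Atp2a2 in both pumps was 0.943%, 0.837% and 0.820% in adult burn, below all young mice (1.41% to 2.74%), and 0.850%, 1.85% and 2.07% in adult sham, where replicate 1 lay among the burned mice. Across treatments the log2 ratio was 0.74 higher in young than in adult mice (exact permutation p = 0.035, adjusted p = 0.21), and its burn effect was -0.40 (exact permutation p = 0.2, adjusted p = 0.3). For Pln to Sln the burn effect was -0.97 (exact permutation p = 0.11, adjusted p = 0.3) and the age effect -0.31 (exact permutation p = 0.585). None of the 6 ratio tests passed after adjustment, over 12 libraries or over 11.

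**Figure D3:**
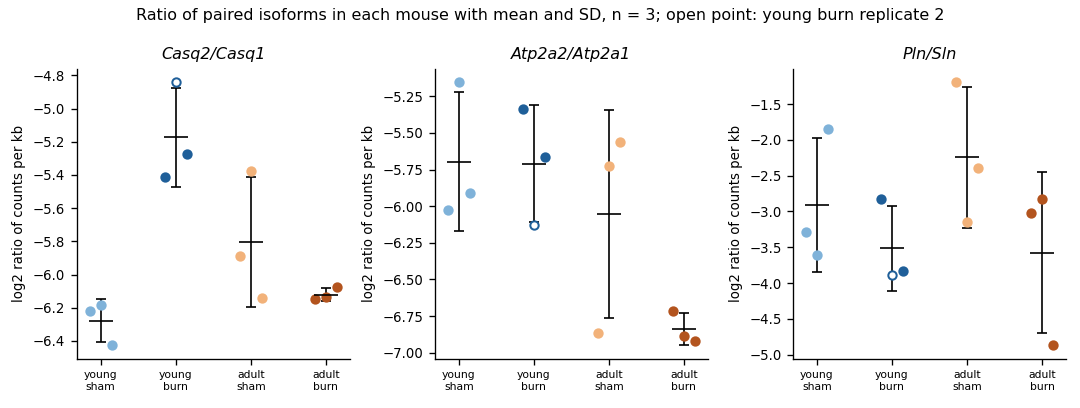
Log2 ratio of counts per kb (y axis) of Casq2 to Casq1, Atp2a2 to Atp2a1 and Pln to Sln in each mouse (points), with mean and SD of each group (n = 3); the open point is young burn replicate 2. The Casq2 to Casq1 ratio lay between -6.43 and -6.18 in young sham and between -5.41 and -4.84 in young burn, without overlap.

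Atp2a2 and Casq2 are used by slow fibres, so their levels were set beside the slow fibre markers Myh7, Tnnt1, Tnni1, Tnnc1, Myl2 and Myl3. Their summed level was 983, 1384 and 813 CPM in young sham, 1325, 379 and 1044 CPM in young burn, 609.6, 1333 and 1508 CPM in adult sham and 613, 615 and 515 CPM in adult burn. Young burn replicate 2 and adult sham replicate 1 were low within their groups. Both were also lowest in their group for Atp2a2, at 111 and 119 CPM, and for Casq2, at 46.4 and 35.15 CPM. In the comparison of adult burn with adult sham, 2 of the 6 markers fell over 11 libraries and 0 of 6 over 12, with a median log2 fold change of -1.01 in both. Their median interaction was 1.16 over 11 libraries, and none of the 6 was called. Adult sham replicate 1, with a sum of 609.6 CPM, had 35.15 CPM of Casq2, and the 3 adult burn mice had 26.75 to 29.9 CPM. Young burn replicate 2 had the lowest sum of all mice and 46.4 CPM of Casq2. Adult sham replicate 3, of another age and treatment, had the highest sum and 39.9 CPM. The part of fibre composition in the changes of Casq2 and Atp2a2 was not tested. In the fast fibre list, 6 of 7 genes could be tested and 2 fell in adult burn over 11 libraries, with a median of 0.10. For the interaction 2 were called, with a higher burn effect in young than in adult mice, and the median was -0.60. Myh1, a myosin of intermediate fast fibres, had 353 to 490.2 CPM in adult burn and 919 to 1032 CPM in adult sham. Myh2, another such myosin, had 205 to 358 and 734 to 825 CPM. In young mice Myh1 had 563 to 785 CPM after sham and 570 to 1013 CPM after burn. Myh2 had 343 to 661 and 281 to 777 CPM there. Means of the other tested genes of the list were higher in adult burn than in adult sham, but not called. For Myh4 they were 28730 and 27502 CPM, for Tnni2 14761 and 12661, for Mylpf 13508 and 11658, and for Actn3 6265 and 5670.

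**Figure D4:**
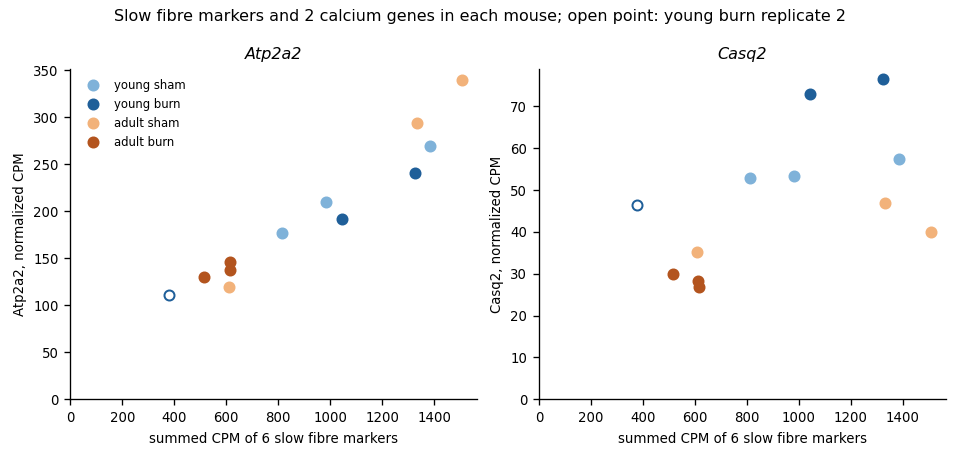
Level of Atp2a2 (left) and Casq2 (right; y axes, normalized CPM) against the summed CPM of 6 slow fibre markers (x axis) in each of the 12 mice, coloured by group; the open point is young burn replicate 2. Atp2a2 is 111 to 146 CPM in the 5 mice with a marker sum up to 615 CPM and 177 to 340.0 CPM in the other 7, while at sums of 515 to 615 CPM Casq2 is 26.75 to 29.9 CPM in adult burn and 35.15 CPM in 1 adult sham mouse.

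Another 61 genes of calcium handling were examined beside the 10, among them channel subunits, junction scaffolds, lumenal proteins, other pumps and their regulators, store-operated entry, mitochondrial uptake and calcium-dependent enzymes. A row was found for 60 of them (Strit1 is not analysed here), and 57 passed the filter on low counts, the exceptions being Ryr3, Fkbp1b and Atp2b2. With burn in the model, age was called for 10 of 57 over 12 libraries (1 higher and 9 lower in young mice) and for 19 over 11 (6 higher and 13 lower), which is 17.5% and 33.3% of those tested against 19.9% and 29.3% of all genes. The lower genes were led by Slc8a1, the sodium-calcium exchanger of the cell membrane, at -0.94 over 11 libraries (SE 0.13, adjusted p = 0.000146), with means of 12.9 CPM in young sham and 24.1 CPM in adult sham. Camk2b, a subunit of calmodulin-dependent kinase II, was lower as well (-0.58, adjusted p = 0.000977). Sypl2, a protein of the triad membrane also called mitsugumin 29, and Ppp3ca, a catalytic subunit of calcineurin, were higher in young mice by 0.53 (adjusted p = 0.00306) and 0.43 (adjusted p = 0.00389). Over 12 libraries Slc8a1 (-1.05, adjusted p = 0.000641) and Camk2b (-0.65, adjusted p = 0.00247) passed too, with Capn3, the muscle calpain (-0.78, adjusted p = 0.0239), and Jph2, a junctophilin that spans the triad (-0.48, adjusted p = 0.0284). By groups over 11 libraries, pump regulators and other pumps held 1 higher and 3 lower genes of 6 tested and calcium-dependent enzymes 1 higher and 4 lower of 15, while none of 4 genes of store-operated entry and 7 of mitochondrial uptake was called for age.

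Between the sham groups 1 of 57 genes of the wider list was called over 12 libraries, Slc8a1 (-0.90, adjusted p = 0.0448), and 8 over 11 libraries, with 4 higher and 4 lower in young mice. These are 1.75% and 14% of the list, against 3.76% and 11.8% of all genes. The 8 included Micu3, a regulator of the mitochondrial uniporter, at 0.58 (adjusted p = 0.0136). Between the burned groups 6 genes were called over 12 libraries, all lower in young burn, and 9 over 11, with 3 higher and 6 lower. These are 10.5% and 15.8% of the list, against 10.8% and 20.7% of all genes. Mrln, which encodes the pump inhibitor myoregulin, was called at -1.33 over 12 libraries (SE 0.29, adjusted p = 0.0135) and -1.08 over 11 (SE 0.26, adjusted p = 0.0106), with means of 59.8 CPM in young burn and 150.3 CPM in adult burn. Bin1, which shapes the transverse tubule, was lower by -0.60 (adjusted p = 0.0205) and -0.45 (adjusted p = 0.0108).

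For burn, the wider list gave 0 calls of 57 over 12 libraries in every comparison by edgeR, where 2 genes in adult burn, 22 in young burn and 20 over both ages had an unadjusted p under 0.05 and DESeq2 called 0, 11 and 2, against 0.0245%, 4.53% and 2.83% of all genes. Over 11 libraries 4 of 57 were called for the burn effect over both ages, against 2.15% of all genes. Tmem38b, a cation channel of the reticulum membrane, was higher after burn at 0.46 (SE 0.09, adjusted p = 0.0145). Camk2a (-0.43, adjusted p = 0.0238), the store sensor Stim1 (-0.30, adjusted p = 0.0289) and Sypl2 (-0.48, adjusted p = 0.0389) were lower. Stim1 had 167 to 175 CPM in young sham and 168 to 172 CPM in adult sham, against 125 to 136 CPM in adult burn and 140.4 and 149 CPM in the 2 remaining young burn mice, so that burn and sham did not overlap at either age. Young burn replicate 2 had 70.8 CPM. When 1 more library was left out, between 0 and 4 genes of the list were called for burn. Micu3 was the 1 gene called in young burn against young sham over 11 libraries (-0.79, SE 0.15, adjusted p = 0.0413), against 0.664% of all genes, and none was called in adult burn or for the interaction, where 11 and 9 had an unadjusted p under 0.05 and DESeq2 called 4 and 0, against 2.33% and 0.73% of all genes.

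**Figure D5:**
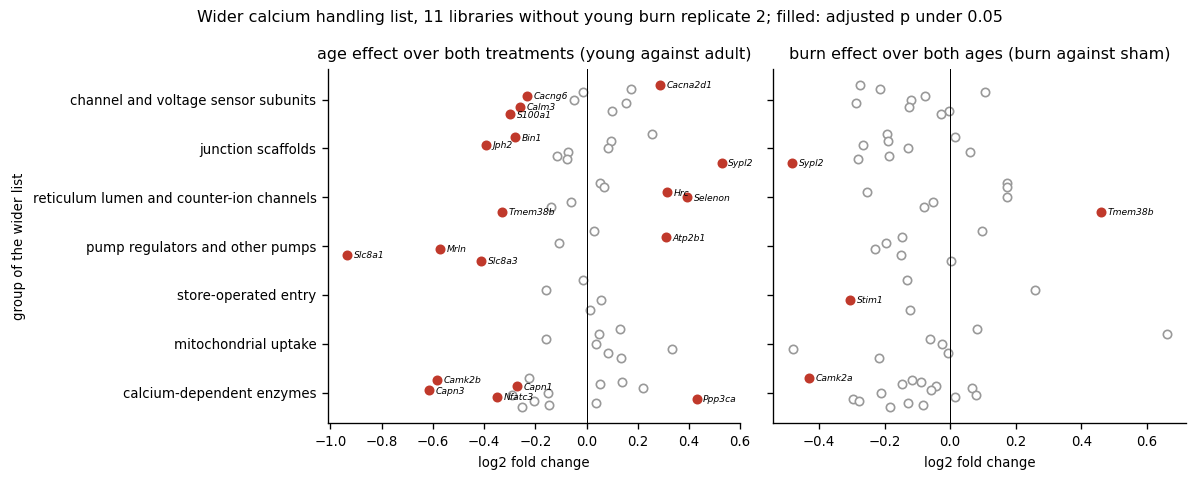
Log2 fold change (x axis) of the 57 tested genes of the wider calcium handling list by group of the list (y axis) over the 11 libraries without young burn replicate 2, for the age effect over both treatments (left) and the burn effect over both ages (right); filled and named points had an adjusted p under 0.05 in edgeR's test. On the left 6 named genes are higher and 13 lower in young mice, and on the right Tmem38b is higher and 3 genes are lower after burn.

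For the calcium genes called in any comparison other than Atp2a1, the 3 tested genes with the most similar pattern were found by the root mean square difference of centred log2 CPM over the 12 libraries. The nearest to Casq2 were Arhgap18 (0.13 log2 units), Xaf1 (0.15) and Tlr3 (0.16), where Casq2 itself had a root mean square deviation of 0.48. For Casq1 they were Deptor, 1700120C14Rik and Car3 (0.17 each), and for Trdn Ccdc146 (0.14), Fitm1 (0.17) and Ppp3ca (0.17), the last a gene of the wider list. Cacna1s lay nearest to Ttc7b, Kif1c and Abcb4 (0.19 to 0.21), and Pvalb to Myl1, 1700008J07Rik and Nexn (0.14 to 0.15). None of the 10 calcium genes was among the 3 nearest of these. These distances are a description over libraries that share their groups.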

How the data were processed

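Poly-A libraries of 12 gastrocnemius samples came from a NEBNext Ultra II kit and were sequenced as pairs of 75 bases. The authors mapped the reads to GRCm38 with STAR and took gene counts by its GeneCounts option on Gencode M25, and the values are deposited as raw counts without normalization or filter. STAR 2.7.5c, bcl2fastq 2.20 and featureCounts 2.0.1 are listed in the submitters' processing notes, and the counted strand is not known from the sources used here. Small RNA counts of the same mice were not used here. Names, positions and exon lengths came from Gencode M21, where 260 of 55401 genes had no match.

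Counts were scaled by TMM and kept by filterByExpr (minimum count 10, minimum total 15), which left 12408 genes in 12 libraries and 12651 in the 11 without young burn replicate 2. The study omitted 1 young burn animal from a heat map, without naming it in the text. This library was chosen for leaving out because it stood apart in these same counts, also in several of the 10 genes. Calls over 11 libraries rest on that choice, also in comparisons without young burn, through the shared estimate of spread. Group means were fitted with edgeR 4.0.16 in R 4.3.3 (quasi-likelihood F test, two-sided, Benjamini-Hochberg over all genes tested, called at adjusted p under 0.05). The interaction came from the same fit, and the age and burn effects from a model with both terms. DESeq2 1.42.0 was an alternative. Ratios used counts plus 2 per kilobase of exon and exact permutation within strata, with Benjamini-Hochberg over 6 tests. The fit was tested on simulated data with 12408 genes. It called 150 to 187 of 200 altered genes in the 6 other comparisons and 99 of 200 for the interaction, with 1 to 10 false calls per comparison. All altered genes had the same size of change, larger than most differences of the 10 genes. These counts therefore do not give the power for smaller changes. Replicate numbers did not pair the mice. The labels say only that the replicates are separate samples, and the paper describes 12 mice with 12 separate RNA samples. The tests therefore judge differences against the variation between mice within a group. Intervals of counting error were not needed, as every value rests on replicates, and reads carry no molecular identifiers. The named genes were the 10 members, at most 4 called genes of the wider list per comparison and fit, by smallest p, and the 3 nearest genes of each called member, of which those of Atp2a1 are not reported here. Myh1, Myh2, the other tested fast fibre genes, Tnnc2 and Tagln were named after their values were seen. Members and lists were chosen with earlier results of these data known.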

Additional observations from a re-analysis of the deposited data

Results flagged for a closer look

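The burn by age interaction of Casq2 was 0.99 (0.9872, standard error 0.16, adjusted p = 0.0341 by edgeR's quasi-likelihood test) over the 11 libraries without young burn replicate 2, since the burn effect was 0.47 in young mice and -0.52 in adult mice. It drew attention because the burn effects at both ages differed by a test of the difference itself. Over all 12 libraries it was 0.78 (adjusted p = 0.683), and DESeq2 called 0 of the 10 genes there. Over 11 libraries DESeq2 gave 0.97 (adjusted p = 0.00207). The edgeR call over 11 libraries was lost in most fits that left out 1 more library, as given above. Chance can give such a call among many genes, and 12 of 12651 genes were called in this test.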

How the results depend on the processing

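Of 2136 log2 fold changes of the 10 calcium genes under alternatives, 2081 kept the sign of the value over 12 libraries. The other 55 belonged to 16 of 70 results, and each of these was uncalled over 12 libraries, with a size of at most 0.495. DESeq2's size factors inside edgeR moved no count of calls by over 1.5 times. The cause of the changes below was not tested. A count below without a share of all genes beside it cannot be read as a result about the listed genes. Fits with 2 libraries left out of young burn rest on 1 mouse there, which is assumed to vary like the other groups. Alternatives over the 11 libraries were added after seeing the data.

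With no filter on low counts, the calcium genes called were 5 between the sham groups, 7 for age over both treatments, 1 in adult burn, 4 in young burn, 4 for burn over both ages and 1 for the interaction. The wider list then had 5 between the sham groups, 15 between the burned groups, 1 in adult burn, 15 in young burn, 12 for burn over both ages and 2 for the interaction. DESeq2 called 4 calcium genes between the sham groups and 4 in young burn, and of the wider list 3 between the sham groups, 10 between the burned groups, 11 in young burn and 2 for burn over both ages. Of all genes it called 5.23% between the sham groups, 10.8% between the burned groups, 4.53% in young burn and 2.83% for burn over both ages. Fitting the groups of the comparison alone called 4 calcium genes between the sham groups, and 7 of the wider list there and 0 between the burned groups. Scaling to library size alone moved the median of all genes by -0.14 between the sham groups, 0.11 between the burned groups, 0.24 in young burn, 0.11 for burn over both ages and 0.25 for the interaction. It called 1 calcium gene in young burn, and 2 of the wider list between the sham groups and 4 in young burn. It turned the sign of Cacna1s in young burn (0.13), Pln in young burn (0.034) and the interaction of Sln (0.044), values close to or below that shift.

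Without young burn replicate 2, DESeq2 called 6 calcium genes between the sham groups, 1 in adult burn, 3 in young burn, 1 for burn over both ages and 1 for the interaction. Of the wider list it called 8 between the sham groups, 11 between the burned groups, 19 for age, 4 in adult burn, 3 in young burn and 8 for burn over both ages, and Cacna1s in young burn turned to 0.064. That fit called 8.99% of all genes between the sham groups, 14.9% between the burned groups and 21.8% for age. It called 2.33% in adult burn, 2.12% in young burn, 3.29% for burn over both ages and 0.73% for the interaction. Library size scaling alone without that mouse called 5 calcium genes between the sham groups, 7 for age, 2 in young burn and 1 for the interaction, and of the wider list 9, 19 and 2 in the first 3 of these and 1 for burn over both ages. Under it Cacna1s (0.22), Atp2a2 (0.13) and Pln (0.13) turned sign in young burn, as did Casq2 (0.022) and Atp2a1 (0.0025) for burn over both ages.

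When libraries were left out, alone or together with young burn replicate 2, the calcium genes called ranged from 0 to 6 between the sham groups, 2 to 5 between the burned groups, 3 to 7 for age, 0 to 2 in adult burn, 0 to 3 in young burn and 0 to 1 for the interaction. For the wider list the ranges were 0 to 9, 1 to 11, 2 to 20, 0 to 1 and 0 to 10 in the first 5 of these and 0 to 4 for burn over both ages. The 0 calcium genes between the sham groups arose without adult sham replicate 2, and the 2 of the wider list for age without adult burn replicate 3. Log2 fold changes that turned sign ranged from -0.22 to 0.11 for Ryr1 and -0.54 to 0.089 for Atp2a2 between the sham groups, and from -0.27 to 0.57 for Trdn and -0.15 to 0.35 for Pvalb between the burned groups. In young burn they ranged from -0.26 to 0.49 for Cacna1s, -0.53 to 0.17 for Atp2a2 and -0.75 to 0.42 for Pln, and in adult burn from -0.00083 to 0.10 for Atp2a1 and -0.12 to 0.048 for Pvalb. For burn over both ages they ranged from -0.22 to 0.065 for Cacna1s, -0.22 to 0.055 for Casq2 and -0.18 to 0.018 for Atp2a1, for age from -0.051 to 0.36 for Atp2a2, and for the interaction from -0.068 to 0.68 for Cacna1s, -1.39 to 0.33 for Sln and -0.048 to 1.11 for Pln. All of them were uncalled over 12 libraries. Pseudocount and transcript length moved no ratio test across the threshold.

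The replicate number as a block, a paired form of the same fits, changed no count of calcium genes by over 1.5 times, and lowered those of the wider list to 0 between the sham groups and 6 for age. Same-numbered mice did not deviate together, with correlations of -0.20 to 0.15 (median 0.015) over 18 pairs of mice from different groups, against -0.19 to 0.21 over 36 such pairs with unlike numbers. With 4392605 to 5688512 counts per library, depth limits Pln, with 3 to 18 reads per mouse, and Sln, with 10 to 76.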
